A study of Mus musculus with 27 samples.

Results

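Endothelins are small peptides that bind G protein-coupled receptors on vascular and glial cells, and the set described here holds the genes of their ligands, receptors and converting enzymes: Edn1, Edn2, Edn3, Ednra, Ednrb, Ece1 and Ece2. The 7 genes were chosen by symbol from the 40129 genes of the table, and all 7 had a mean of at least 1 normalized read and were among the 27137 genes tested. Whole retinas of wild-type C57BL/6 mice (C57BL/6J in the methods) were sequenced as bulk RNA, with 1 library per mouse from 1 or 2 retinas. In oxygen-induced retinopathy (OIR), pups breathed 75% oxygen from postnatal day 7 to day 12 and then room air. In this model, growing retinal vessels regress in high oxygen, and the return to room air leaves the avascular retina hypoxic before new vessels form. Controls without OIR (nOIR) stayed in room air throughout. Retinas were taken at 14 or 17 days of age, from 6 control mice and 6 OIR mice at p14 and from 6 control mice and 8 OIR mice at p17. A seventh control mouse of p14, S4, which the study also left out, was not in the main comparisons. Pups of both sexes came from several litters, and the litter of a mouse is not in the labels, so p-values measure the spread between mice and take them as independent.

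Each endothelin is made as a long precursor that is trimmed to big endothelin and then cut by an endothelin converting enzyme to the active peptide. The receptor Ednra, on pericytes and vascular smooth muscle, constricts vessels, while Ednrb, on endothelial and glial cells, releases vasodilators and also clears the peptide. In the retina, Edn2 is known as a gene that stressed photoreceptors switch on, and Edn1 as a product of endothelial cells.

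The 3 ligands differ in few positions of the active peptide, which is shown here as the bases that code for its 21 residues, because the ligands share their receptors and had different values in OIR. The sequences were read 5′ to 3′ from GENCODE M21 transcripts (GRCm38), and capitals mark the bases that are not the same in all 3 ligands.
Edn1: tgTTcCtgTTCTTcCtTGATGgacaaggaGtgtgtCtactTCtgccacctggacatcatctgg
Edn2: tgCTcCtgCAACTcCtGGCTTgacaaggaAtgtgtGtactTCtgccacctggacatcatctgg
Edn3: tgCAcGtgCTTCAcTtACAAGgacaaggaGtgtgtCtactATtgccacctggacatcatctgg
Of 63 bases, 45 were identical in the 3 ligands, and of 21 residues, 15 were identical. Edn1 and Edn2 shared 18 residues, and each shared 15 with Edn3. The last 21 bases are the same in each.

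Edn2 was higher in OIR than in control retinas at both ages, while Ednra fell at p14 and rose at p17. Values are normalized reads, that is read counts divided by the study's size factor of each mouse. Fold changes are on the log2(normalized reads + 1) scale, and genes were called at an adjusted p under 0.05 by limma with Benjamini-Hochberg adjustment over all 27137 genes. At p14, 2 of the 7 members were called, Edn2 higher and Ednra lower, beside 3.18% of all genes tested that were higher, 2.91% that were lower and 6.09% in either direction. At p17, 5 of the 7 were higher (Edn1, Edn2, Ednra, Ednrb and Ece1) beside 7.39% of all genes, and 0 were lower beside 5.12%. The same shares of all genes stand behind the counts of the gene lists given further on. In bulk RNA of whole retina, fewer cells of a type and less RNA per cell cannot be told apart.

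**Figure D1:**
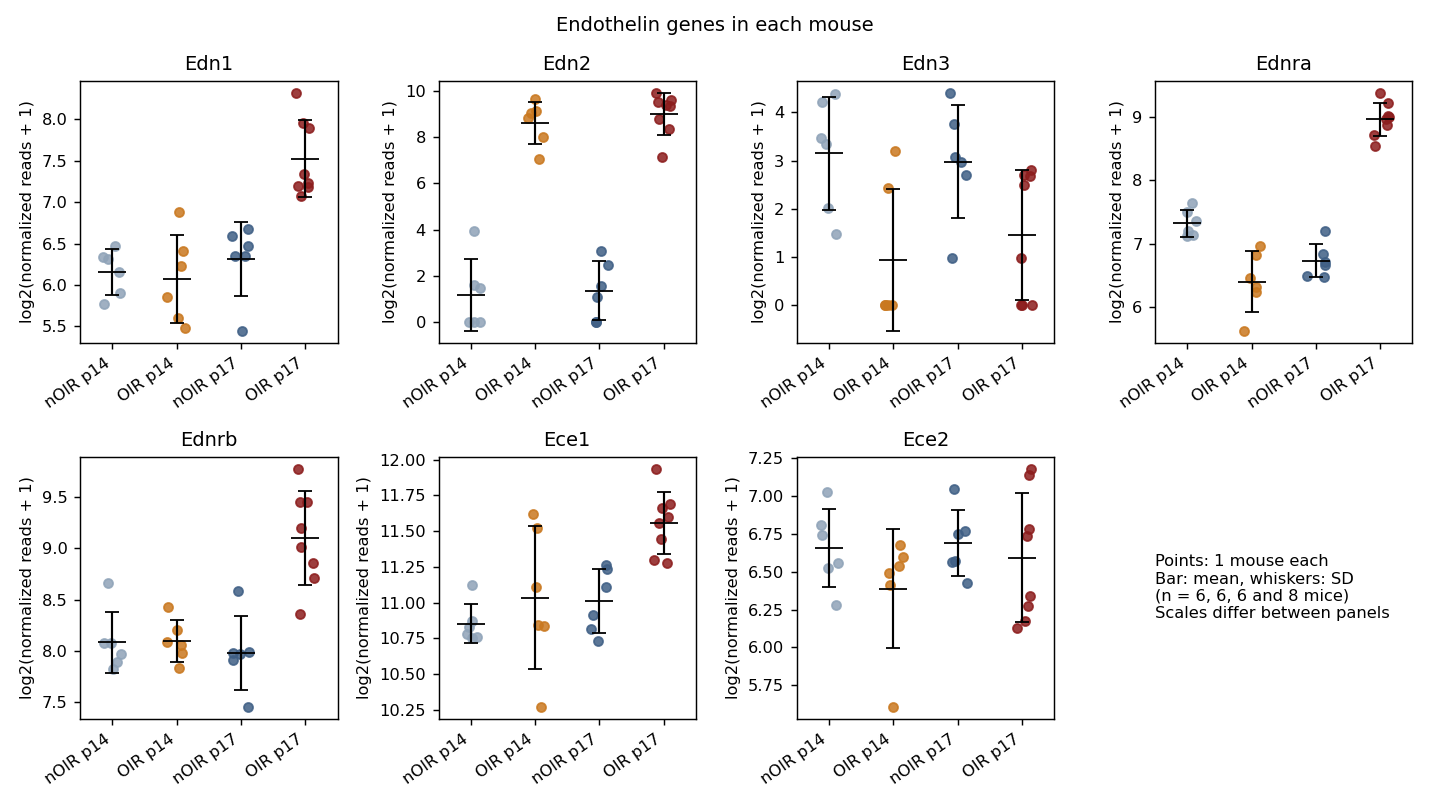
Level of each of the 7 genes in every mouse, as log2(normalized reads + 1), by group of control (nOIR) and OIR mice at p14 and p17, where points are mice, bars are means and whiskers are SD. The OIR mice sit far above the controls for Edn2 at both ages, and for Ednra they sit below the controls at p14 and above them at p17.

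Among the ligands, Edn2 had few reads in control retinas. It was at 0 in 3 of 6 nOIR p14 mice and in 2 of 6 nOIR p17 mice, with highest values of 14.2 and 7.42 normalized reads, and the groups held 18 and 16 recovered reads in all. In OIR mice the lowest, median and highest values were 133, 483 and 783 at p14, and 138, 659 and 944 at p17. No OIR mouse overlapped the controls at either age, a separation seen in the higher direction for 1.91% of genes at p14 and 3.9% at p17.

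The means of Edn2 were 448 ± 230.1 (SD, n = 6) against 2.996 ± 5.55 (n = 6) at p14, and 584 ± 263 (n = 8) against 2.50 ± 2.93 (n = 6) at p17. The control mean of p14 rested mostly on mouse S3, which held 14 of the 18 recovered reads, and without S3 it was 0.762. At p17, S5 held 8 of the 16 reads, and the mean without S5 was 1.51. Both mice were left out after seeing the data. The log2 fold change was 7.44 (SE 0.61, limma adjusted p = 3.73e-09) at p14 and 7.64 (SE 0.57, adjusted p = 5.15e-11) at p17. Ranked by p over all genes tested, Edn2 was gene 6 at p14 and gene 45 at p17. Both values exceed the study's fold threshold of 2 on the log2 scale. Among all genes tested, 0.744% at p14 and 1.9% at p17 exceeded it upward with an adjusted p under 0.05. Because the controls hold so few reads, the size depends on the pseudocount, and a pseudocount of 0.1 gave 9.29 and 9.03. The OIR effect on Edn2 did not differ detectably between ages, with a difference of 0.20 and a 95% interval of -1.52 to 1.91.

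The level of Edn2 also varied widely among the OIR mice, with a coefficient of variation of 51.3% at p14 and 45.1% at p17. The share of Edn2 among the 3 ligands' reads per kilobase of exon was 5.50% ± 10.3 (SD) in nOIR p14 and 87.5% ± 8.53 in OIR p14, and 3.49% ± 3.79 in nOIR p17 and 78.9% ± 9.71 in OIR p17, and the OIR mice did not overlap the controls. The mean of nOIR p14 rested on mouse S3 (26.2%), and without it, a choice made after seeing the data, it was 1.36% ± 1.91 (SD, n = 5). Per kilobase, Edn1 was the leading ligand in both control groups, with means of 33.4 and 38.0 reads per kilobase against 2.05 and 1.71 for Edn2 (0.521 and 1.03 without those 2 mice), and Edn2 led in every OIR mouse. In OIR mice, Edn2 reached 307 and 399 reads per kilobase.

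**Figure D2:**
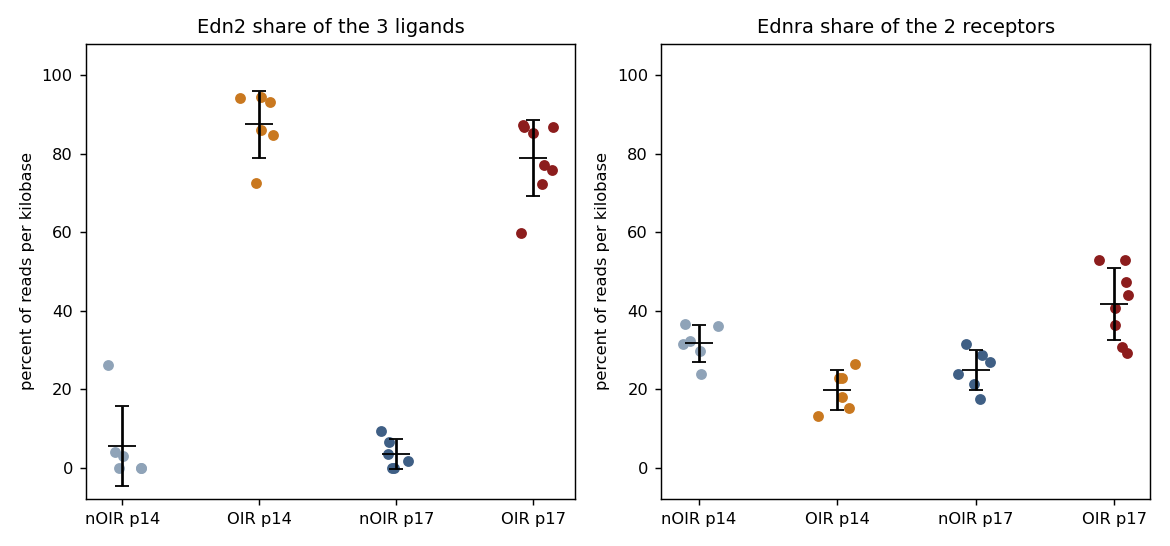
Share of Edn2 among the 3 ligands (left) and of Ednra among the 2 receptors (right), in percent of the normalized reads per kilobase of exon, for each mouse by group, with mean and SD. The Edn2 share lies at 59.8% or higher in every OIR mouse and at 26.2% or lower in every control, whereas the mean Ednra share of OIR mice lies below that of controls at p14 and above it at p17.

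Edn1, the best studied vasoconstrictor of the family, did not pass the test at p14 and rose at p17. Its lowest, median and highest values were 53.6, 74.4 and 87.9 in nOIR p14, and 43.5, 65.5 and 117 in OIR p14. At p17 they were 42.5, 84.0 and 101 in nOIR mice, and 134, 155 and 318 in OIR mice. The p14 groups overlapped, while every OIR p17 mouse lay above every nOIR p17 mouse.

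The log2 fold change of Edn1 was -0.08 (SE 0.25, limma adjusted p = 0.930) at p14, with a 95% interval of -0.60 to 0.43, and 1.21 (SE 0.24, adjusted p = 0.000438) at p17. The 2 effects differed by 1.29 (SE 0.35), with an adjusted p of 0.0507 that just missed the threshold. This call changed with the processing, since the adjusted p was between 0.0125 and 0.10 in the 9 alternatives. The difference was called without nOIR p14 mouse S3, nOIR p17 mouse S5, OIR p14 mouse S1 or S5, or OIR p17 mouse S1 or S4, and the adjusted p ranged from 0.0160 to 0.103 over the mice left out. Between OIR p14 and OIR p17 it rose by 1.45 (SE 0.24, adjusted p = 0.000153) without overlap, a separation seen upward for 1.41% of genes.

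Edn3, a ligand that binds Ednrb well and is best known from neural crest development, had few reads in every group, with means per kilobase of exon above those of Edn2 in the controls (2.49 and 2.17) and below those of both other ligands in OIR (0.513 and 0.684). It was detected in all 6 mice of both control groups, with medians of 9.58 and 7.11 normalized reads, but was at 0 in 4 of 6 OIR p14 mice and in 3 of 8 OIR p17 mice. Summed recovered reads were 64 and 53 in the controls at p14 and p17, and 15 and 22 in the OIR groups. The groups overlapped at both ages.

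The log2 fold change of Edn3 was -2.21 (SE 0.71, limma adjusted p = 0.0636) at p14 and -1.52 (SE 0.66, adjusted p = 0.151) at p17, so it was not called at either age. It was called at p14 with a pseudocount of 0.1 (-4.27, adjusted p = 0.0488) and with S4 included (-2.31, adjusted p = 0.0324). It was also called without nOIR p14 mouse S1 or OIR p14 mouse S4 or S6, where the lowest adjusted p was 0.0202. At this depth a mouse holds at most 20 reads of Edn3, which limits any comparison.

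Ednra, the receptor that mediates constriction, was lower in OIR at p14 and higher at p17. Its lowest, median and highest values were 138, 154 and 199 normalized reads in nOIR p14, and 48.1, 82.4 and 124 in OIR p14. At p17 they were 88.3, 102.4 and 147 in nOIR mice, and 373, 506 and 667 in OIR mice. No mouse of one group lay within the other at either age, below the controls at p14 (1.86% of genes) and above them at p17.

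Ednra fell by 0.92 on the log2 scale (SE 0.19, limma adjusted p = 0.00168) at p14, from 161 ± 24.7 (SD, n = 6) to 87.3 ± 27.4 (n = 6). At p17 it rose by 2.23 (SE 0.17, adjusted p = 1.04e-10), from 107 ± 21.5 (n = 6) to 507 ± 93.1 (n = 8). The difference between the 2 effects was 3.15 (SE 0.26, adjusted p = 5.20e-09), with a 95% interval of 2.63 to 3.68. It ranked 3 of 27137 genes by p for this difference. Higher effects at p17 were called for 1.43% of genes, and for the members of the set they were called for Ednra and Ednrb. Both the p14 and the p17 call of Ednra held in each of the 10 alternatives and without any single mouse, where the p14 value ranged from -1.04 to -0.77.

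Only 19 genes of 27137 (0.07%) were called lower at p14 and higher at p17, and 1 gene the other way. Ednra was among the 19. Of the markers listed here, the 19 held the pericyte genes Abcc9, Kcnj8 and Higd1b and the endothelial gene Cldn5, and of the pathway lists also Rgs5. The others, named after their values were seen, included Tgfbr2, Coro1a, Tlr12, Aspn and Slc40a1. Since the list was read from the same comparisons, it describes these mice and does not add a test.

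The ages can also be compared within each condition, which shares mice with the comparisons above. In nOIR mice 0 of 7 members were called between p14 and p17 by limma and edgeR, and 0 of 6 by DESeq2, which gave no adjusted p for Edn3, beside 0.317% of all genes tested. The member with an unadjusted p under 0.05 was Ednra, which had a log2 fold change of -0.59 (SE 0.19, limma adjusted p = 0.252, unadjusted p = 0.00374). In OIR mice Ednra rose by 2.56 between p14 and p17 (SE 0.17, adjusted p = 5.21e-11), gene 4 by p. In that comparison 4 members were higher (Edn1, Ednra, Ednrb and Ece1) beside 4.11% of all genes. None was lower, beside 491 of the 27137 genes tested. Edn2 was not called between OIR p14 and OIR p17 (0.39, SE 0.57, adjusted p = 0.783), and this value ranged from 0.09 to 0.66 over the mice left out.

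**Figure D3:**
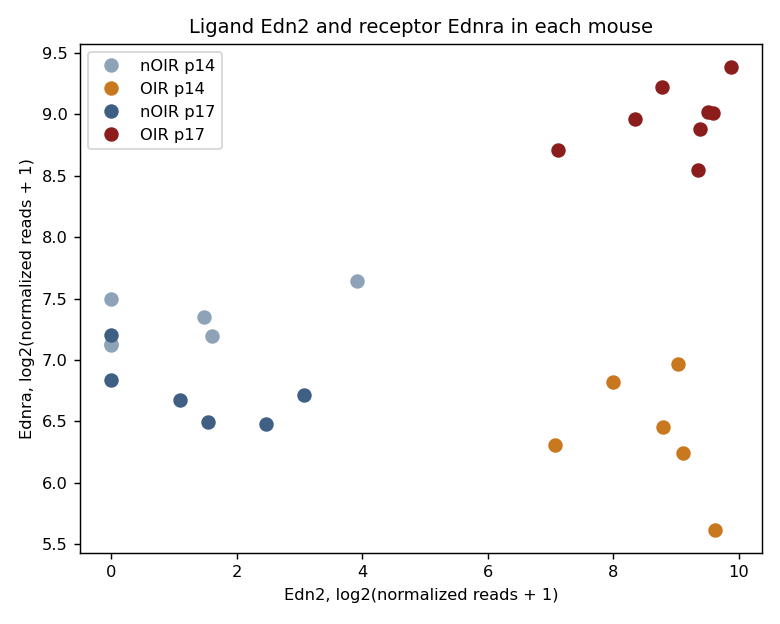
Ednra against Edn2 in each mouse, both as log2(normalized reads + 1), coloured by group. The OIR p14 and OIR p17 mice share the high Edn2 range but lie apart on the Ednra axis, with OIR p14 below 7 and OIR p17 above 8 on that log2 scale.

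Ednrb, the receptor that also clears the peptide, passed the test at p17 and not at p14. Its lowest, median and highest values were 224.9, 259 and 403 normalized reads in nOIR p14, and 227, 267 and 343 in OIR p14. At p17 they were 174, 250.1 and 383 in nOIR mice, and 327, 553 and 879 in OIR mice. The p14 groups overlapped throughout, and the p17 groups overlapped in their margins.

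The log2 fold change of Ednrb was 0.01 (SE 0.20, limma adjusted p = 0.988) at p14, with a 95% interval of -0.39 to 0.42, and 1.12 (SE 0.18, adjusted p = 4.37e-05) at p17. The 2 effects differed by 1.11 (SE 0.27, adjusted p = 0.0257). That difference was lost with S4 included (1.01, adjusted p = 0.0536), and without nOIR p14 mouse S1 or nOIR p17 mouse S3, where the adjusted p reached 0.0526. Ednrb rose by 1.01 between OIR p14 and OIR p17 (SE 0.18, adjusted p = 0.00058).

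The balance of the 2 receptors was taken within each mouse. The Ednra share of receptor reads per kilobase of exon was 31.7% ± 4.64 (SD) in nOIR p14, 19.7% ± 5.17 in OIR p14, 24.9% ± 5.11 in nOIR p17 and 41.7% ± 9.18 in OIR p17. Ednrb had more reads per kilobase than Ednra in each of the 4 group means, with 134.6 against 92.5 in OIR p17, where the Ednra share of single mice ranged from 29.3% to 52.9%.

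**Figure D4:**
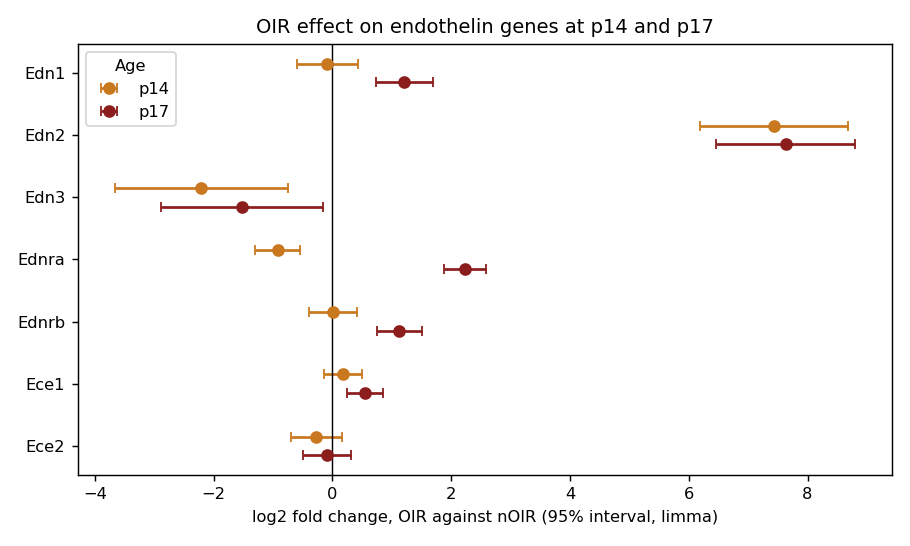
Log2 fold change of OIR against nOIR for each gene at p14 and p17, with 95% intervals from limma. Ednra lies on opposite sides of 0 at the 2 ages, Edn2 lies near 7.5 at both, and the intervals of Ece2 include 0 at both.

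Ece1, the main converting enzyme, was the most abundant gene of the set. Its lowest, median and highest values were 1721, 1790 and 2225 normalized reads in nOIR p14, and 1234, 2022 and 3147 in OIR p14. At p17 they were 1700, 2070 and 2459 in nOIR mice, and 2485, 3057 and 3920 in OIR mice. The p14 groups overlapped, and the p17 groups did not.

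The log2 fold change of Ece1 was 0.18 (SE 0.16, limma adjusted p = 0.650) at p14 and 0.55 (SE 0.15, adjusted p = 0.0113) at p17. The difference of the 2 effects was 0.36 with a 95% interval of -0.08 to 0.81 (adjusted p = 0.585). Its rise between OIR p14 and OIR p17 was 0.52 (SE 0.15, adjusted p = 0.0294), and was lost without OIR p14 mouse S1, S2 or S3 or OIR p17 mouse S2 or S5, where the adjusted p reached 0.0969. It was also lost on the compared groups alone (adjusted p = 0.117), with the lens gene Cryaa in the model (0.0555) and by edgeR (0.0680).

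Ece2, a converting enzyme that works in acidic vesicles, did not pass the test in any comparison. Its log2 fold change was -0.27 (95% interval -0.70 to 0.16) at p14 and -0.09 (95% interval -0.50 to 0.31) at p17, at means of 84.9 to 103 normalized reads. The gene model Gm49333 shares 57.5% of its exon bases on the same strand in GENCODE M21. Gm49333 is not in the deposited table under that name. Whether reads there were split or set aside in counting is not known, so the level of Ece2 is uncertain. Edn1 and Ednra share 1.64% and 1.66% of their exon bases with genes on the other strand, and the libraries do not mark strand.

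Genes with the most similar pattern over the 4 groups were found by the root mean square difference of their group means from nOIR p14 (26 mice, 19003 candidates). For Ednra these were Tnfsf10 (0.10), Fam20a (0.18) and Foxs1 (0.18). For Edn1 the nearest was Fgd5 (0.08) and for Ednrb Pik3r6 (0.02). The nearest gene to Edn2 was Esm1, a gene of endothelial tip cells, at 1.45, a larger distance than those of the nearest genes to the other members named here. Timp1 (1.61) and Lad1 (1.735) came next. The log2 fold changes at p14 and p17 were 4.94 and 7.85 for Esm1, 5.90 and 5.03 for Timp1, and 5.40 and 5.31 for Lad1.

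The promoters of the contrasted genes are shown because Edn2 and Ednra moved differently in a tissue that passes through hypoxia, and ACGTG and GCGTG are core letters bound by hypoxia-inducible factors. They are RefSeq sequences of build GRCm38.p6, 250 bases before the start, 5′ to 3′ on the strand of the gene, and capitals mark a match on either strand. Edn2 lies at chr4:120160956-120161205 (plus strand), with 1 match to GCGTG, 219 bases before the start, and Ednra at chr8:77724453-77724702 (minus strand), with 0.
Edn2: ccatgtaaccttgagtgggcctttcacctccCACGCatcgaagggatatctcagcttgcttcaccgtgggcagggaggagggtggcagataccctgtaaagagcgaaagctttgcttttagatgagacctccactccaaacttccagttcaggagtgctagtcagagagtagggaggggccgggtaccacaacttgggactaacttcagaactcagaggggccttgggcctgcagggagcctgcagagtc
Ednra: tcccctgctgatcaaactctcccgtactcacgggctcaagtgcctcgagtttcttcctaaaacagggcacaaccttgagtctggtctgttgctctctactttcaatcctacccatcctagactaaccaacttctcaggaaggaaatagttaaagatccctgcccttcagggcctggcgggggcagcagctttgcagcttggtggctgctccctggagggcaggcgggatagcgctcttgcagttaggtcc
Of the 19200 promoters of genes tested, 49.1% hold at least 1 such match, and the lack of a match in Ednra says only that these letters are not in this window.

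Pericytes, the mural cells of capillaries that carry Ednra, were followed by 11 marker genes. At p14, 5 of 11 were lower and 2 higher, with a median log2 fold change of -0.47 beside 0.02 for all genes. At p17, 8 were higher and 1 lower, with a median of 1.36 beside -0.02. Their summed level was 19862 to 24881 normalized reads in nOIR p14, 15733 to 21901 in OIR p14, 21546 to 31432 in nOIR p17 and 24941 to 40220 in OIR p17. This sum is mostly Vtn, which made up a median of 90.8% of it in nOIR p14, 80.5% in OIR p14, 93.5% in nOIR p17 and 74.0% in OIR p17. Without Vtn, a choice made after seeing the data, the sum of the other 10 markers was 1746 to 2307 in nOIR p14 and 3195 to 4174 in OIR p14, and 1599 to 1980 in nOIR p17 and 6512 to 9995 in OIR p17. At p14 it was thus higher in OIR mice, with a median of 3473 against 2044 in controls. Ndufa4l2 alone had a mean of 2264 there against 194 in controls, a larger rise than that of the sum. The higher sum therefore does not describe the remaining markers, whose sum without both genes was not taken.

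Kcnj8 and Abcc9, which form a potassium channel of pericytes, had log2 fold changes of -1.72 (SE 0.19) and -1.47 (SE 0.19) at p14 and 0.99 (SE 0.18) and 1.36 (SE 0.18) at p17. Higd1b went from -1.21 to 2.27. Of the 11 markers, 3 had values above 0 at p14 and 9 at p17, so that 6 changed sign, and for Kcnj8, Abcc9 and Higd1b both values were called. Anpep (-1.35 and 0.85) was called at neither age, and Notch3 (-0.08 and 1.81) was called at p17. Values did not change sign for Ndufa4l2 (3.52 and 4.79), Des, the muscle-type intermediate filament (1.04 and 3.43), Cspg4 (0.18 and 2.29), Atp13a5 (-2.88 and -2.72) and Vtn (-0.47 and -0.14). Pdgfrb, the receptor by which pericytes are recruited, was -0.32 at p14, where it was not called (limma adjusted p = 0.392), and 1.32 at p17 (adjusted p = 1.02e-06).

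The distance of Ednra from these markers was taken within each mouse. Ednra minus the mean log2 of the 11 markers was -0.36 ± 0.17 (SD) in nOIR p14, -0.85 ± 0.44 in OIR p14, -0.83 ± 0.20 in nOIR p17 and -0.08 ± 0.27 in OIR p17. It was lower in OIR than in control means at p14 and higher at p17. Most of the p14 gap comes from Ndufa4l2, whose log2 fold change of 3.52 raises the marker mean. The distance was not taken without Ndufa4l2, so the p14 gap does not show that Ednra fell further than the remaining markers. Ednra minus the log2 of Pdgfrb was -2.14 ± 0.36 (SD) in nOIR p14 and -2.74 ± 0.45 in OIR p14. In nOIR p17 it was -2.72 ± 0.24, and in OIR p17 -1.81 ± 0.38. Ednra minus the mean log2 of the vascular smooth muscle markers was 1.30 ± 0.33 in nOIR p14 and -0.29 ± 0.60 in OIR p14. In nOIR p17 it was 0.91 ± 0.31, and in OIR p17 1.87 ± 0.51. The part of these markers' change in the Ednra result was not tested.

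**Figure D5:**
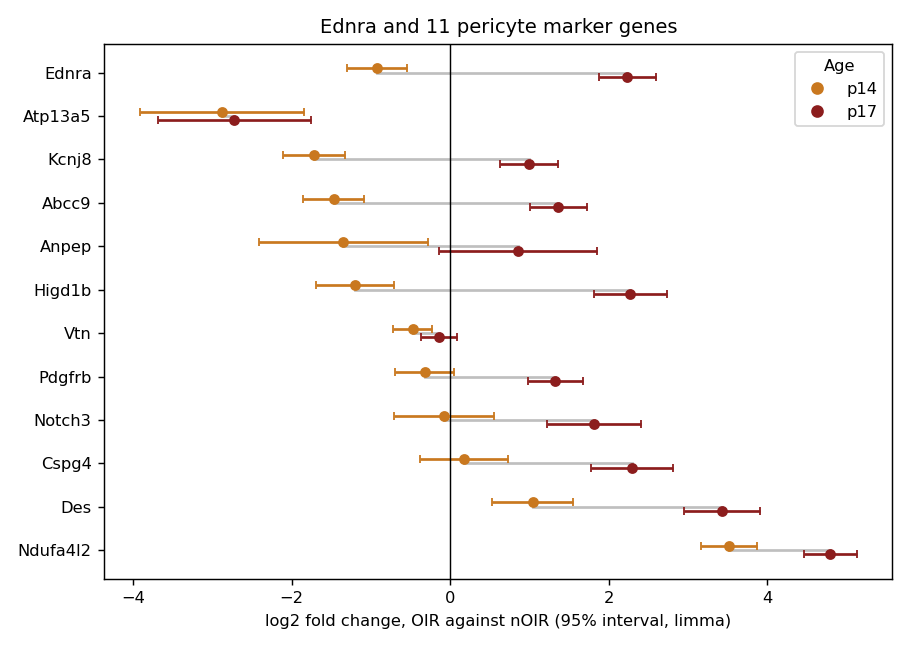
Log2 fold change of OIR against nOIR at p14 and p17 for Ednra and the 11 pericyte marker genes, with 95% intervals from limma, ordered by the value at p14. Of the 11 markers, 6 change sign from below to above 0 (Kcnj8, Abcc9, Anpep, Higd1b, Pdgfrb and Notch3), Atp13a5 and Vtn stay below 0, and Cspg4, Des and Ndufa4l2 stay above 0.

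Markers of vascular smooth muscle and endothelium were counted in the same way. Of 7 vascular smooth muscle markers, 2 were higher at p14 and 4 at p17 and none was lower, with medians of 0.69 and 1.19. Acta2, the smooth muscle actin, had the highest value at both ages, 2.00 (SE 0.23) and 3.68 (SE 0.22), and the lowest were Lmod1 at p14 (-0.47) and Pln at p17 (-0.18), neither of them called. Of 11 endothelial markers, 2 were higher and 1 lower at p14, and 9 were higher at p17, with medians of -0.11 and 1.27. The 2 higher at p14 were Pecam1, an adhesion molecule, at 0.40 (1.27 at p17), and Flt1, a VEGF receptor, at 0.39 (0.62 at p17), and the 1 lower was Cldn5, a tight junction protein, at -0.83 (0.89 at p17). Tie1, an endothelial receptor, was -0.46 at p14, where it was not called (limma adjusted p = 0.0565), and 1.62 (SE 0.13) at p17.

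The level of Ednrb was also set against the endothelial markers within each mouse. Ednrb minus their mean log2 was -0.77 ± 0.30 (SD) in nOIR p14, -0.61 ± 0.38 in OIR p14, -0.64 ± 0.32 in nOIR p17 and -0.70 ± 0.43 in OIR p17, and these means lay closer together than the SD within the groups. For Edn1 the same difference was -2.70 and -2.63 in the control and OIR mice of p14, and -2.31 and -2.28 in those of p17. For Ece1 it was 2.00 and 2.33 at p14, and 2.39 and 1.76 at p17. Astrocyte markers, which could also carry Ednrb, gave 3 of 7 higher and 1 lower at p14, and 4 higher and 1 lower at p17. Mueller glia markers gave 1 of 7 higher and 3 lower at each age, with medians of -0.24 and -0.19. The part of these cells in the changes was not tested.

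Rod markers, from the most abundant retinal cells, gave 1 of 6 lower at p14 by limma and 2 by edgeR and DESeq2. At p14, 4 had an unadjusted p under 0.05 by limma. At p17, 2 of 6 were lower by each of these tools. None was higher, and all 6 had values below 0 at both ages, with medians of -0.25 and -0.22. Melanocyte markers, which could bring Ednrb in from the choroid, gave 0 of 7 called at both ages by limma, edgeR and DESeq2 (0 at an unadjusted p under 0.05), with summed levels of 709 to 1777 normalized reads in the controls and 921 to 1813 in OIR mice at p14, and of 534 to 1338 and 530.5 to 1127 at p17. Lens markers varied from 33.7 to 29035 normalized reads among mice, with 0 of 6 called at both ages by the 3 tools (0 at an unadjusted p under 0.05). All 6 lens markers had values above 0 in OIR at both ages, with medians of 1.10 and 1.58, and the median summed level was 346 in controls and 2001.3 in OIR mice at p14, and 1919.6 and 6597 at p17. With Cryaa in the model, the calls of the members against nOIR were the same at both ages. At p17, 5 of 6 red blood cell markers and 4 of 6 microglia markers were higher, and 0 of either list at p14 by the 3 tools (DESeq2 gave no adjusted p for 1 red blood cell marker), where 0 and 2 had an unadjusted p under 0.05. The part of these cells in the member values was not tested.

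Genes that make or degrade the peptides were followed next. Of 10 tested, 2 were higher at p14 and 3 at p17 by limma, and 0 were lower, whereas DESeq2 also called Mmel1 lower at p17. Ecel1, a relative of the converting enzymes that is induced in injured neurons, rose by 4.52 (SE 0.53) at p14 and 4.10 (SE 0.50) at p17, from 15.9 to 369 and from 13.5 to 192 normalized reads. Ctsa, a lysosomal carboxypeptidase that degrades endothelin, rose by 0.32 and 0.35, and Mmp2, a protease that can cut big endothelin, was 0.08 at p14 and rose by 0.35 at p17. Mmel1, a relative of neprilysin, had values of 0.39 at p14 and -0.41 at p17 and was called at neither age by limma (adjusted p = 0.183 and 0.0756), while DESeq2 gave -0.41 with an adjusted p of 0.0430 at p17. The lowest value at p17 was that of Pcsk6, a proprotein convertase named after its value was seen, at -1.22 (SE 0.55, limma adjusted p = 0.163), which was not called.

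Of 19 genes for the coupling of the receptors, 2 were higher and 2 lower at p14, and 4 higher and 6 lower at p17, with medians of -0.01 and -0.20. Gnai2, an inhibitory G protein subunit, rose by 0.79 (SE 0.09) at p17. Plcb1, the phospholipase C that Gq activates, fell by 0.70 (SE 0.11) at p14 and by 0.86 (SE 0.10) at p17, and Prkcb, a protein kinase C, fell by 1.08 (SE 0.20) at p17.

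The desensitization genes gave 3 of 11 lower at p14, and 2 higher and 3 lower at p17. Rgs5, which shortens Gq and Gi signals and is abundant in pericytes, was -1.10 (SE 0.15) at p14 and 1.84 (SE 0.14) at p17, a difference of 2.94 (SE 0.21, limma adjusted p = 7.48e-10). Rgs2 rose by 0.96 (SE 0.15) at p17. Among 11 contraction genes 0 were called at p14 by limma and edgeR and 1 by DESeq2 (1 at an unadjusted p under 0.05), and at p17 2 were higher and 1 lower, with Myl9, a regulatory myosin light chain, rising by 1.97 (SE 0.17).

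Genes of the opposing vasodilator pathway gave 3 of 11 lower at p14, and 4 higher and 2 lower at p17. These counts include Kcnj8 and Abcc9, which are also pericyte markers. Nos2, the inducible nitric oxide synthase, rose by 2.12 (SE 0.36) at p17, with overlapping groups.

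Genes of the glial and cytokine response that accompanies Edn2 in photoreceptor injury gave 11 of 14 higher at p14 and 13 of 14 at p17, with medians of 2.36 and 1.93. Gfap, the filament of reactive glia, rose by 3.23 (SE 0.31) and 3.68 (SE 0.29), and Vim, another glial filament, by 1.14 (SE 0.12) and 1.46 (SE 0.11). Cebpd, a transcription factor of inflammation, rose by 3.13 (SE 0.34) and 3.52 (SE 0.32). For these 3 genes, as for Edn2, the difference between the ages was not called, and of the 14 it was called for Fos, at 1.06 (SE 0.26, limma adjusted p = 0.0319). Egr1 and Il6st, named after their values were seen, were called by limma at p17 and not at p14. Lif, named likewise, was called at neither age by limma or edgeR, but at p17 by DESeq2 (1.88, adjusted p = 0.0185).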

How the data were processed

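Retinas of 27 mice were analysed in 4 groups from the labels. According to the methods and processing notes, the authors mapped reads with STAR 2.7.8a to Gencode M28 (GRCm39), counted them with featureCounts 2.0.1 and normalized with DESeq2 1.34, and the deposited signal is normalized reads (counts divided by a size factor). The deposited table also holds group means and the authors' log2 fold changes and adjusted p-values, which were not used. Values divided by the step of their mouse came out whole (100% within 0.01), which gave 17029536 to 33593428 recovered reads per mouse, median 30024568. Mouse nOIR p14 S4 was left out, leaving 26 mice.

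Genes that averaged 1 normalized read or more over the mice were fitted in 1 model over 4 groups, on log2(normalized reads + 1), with limma 3.58.1 (R 4.3.3), and called at an adjusted p under 0.05. The fit was tested on simulated data. edgeR 4.0.16 and DESeq2 1.42.0 on recovered reads, another pseudocount and filters, S4 included, the compared groups alone, a replicate block, rescaling, adding the log2 level of the lens gene Cryaa to the model, and the omission of single mice were alternatives. Exon lengths and overlaps come from GENCODE M21 (GRCm38), which is not the build of the authors. The members and gene lists were chosen with earlier results of these data known. The text names all members, up to 4 genes per list with the smallest adjusted p at p14 or p17, pericyte and endothelial markers set beside a member, and the genes most like a member. Table columns of samples outside the series numbered 0.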

Additional observations from a re-analysis of the deposited data

Results flagged for a closer look

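In 28 groups of values (7 genes in 4 groups), 5 held 1 mouse that stood apart from the rest of its group by Dixon's criterion, and chance alone marks about 1 in 20 groups. These were the lowest Edn1 value in nOIR p17 (S6, 42.5 normalized reads), the highest Edn2 value in nOIR p14 (S3, 14.2), the highest Ednrb and Ece1 values in nOIR p14 (both S1, 403 and 2225) and the lowest Ece2 value in OIR p14 (S1, 47.8). Without nOIR p14 S1 the difference of the Ednrb effects between the ages lost its call.

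For 2 receptors the OIR effect differed between the ages by a test of the difference itself. The effect at p17 minus that at p14 was 3.15 (log2) for Ednra and 1.11 for Ednrb, with limma adjusted p of 5.20e-09 and 0.0257.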

How the results depend on the processing

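Edn2 and Ednra kept their direction and their calls against nOIR at both ages in the 10 alternatives and without any single mouse. Edn3 at p14 was called with a pseudocount of 0.1 (-4.27) and with S4 included (-2.31). The difference of the Edn1 effects was called with a mean of at least 10 (1.29), with S4 (1.36), after rescaling to the same total (1.32) and by DESeq2 (1.27). The difference of the Ednrb effects lost its call with S4 (1.01), and the Ece1 rise from OIR p14 to p17 lost its call on the compared groups alone (0.52), with Cryaa (0.51) and by edgeR (0.47). Values close to 0 changed sign for the Edn2 difference (-0.26, pseudocount 0.1), Ece2 between the control ages (-0.014, rescaled), Ednrb at p14 (-0.0027 with Cryaa, -0.0021 by DESeq2) and Edn2 between the control ages (-0.11 by edgeR, -0.20 by DESeq2). The causes were not tested.

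Mice of the same number did not deviate together (correlations of -0.108 to 0.14), so the numbers do not pair them. With a replicate block, the Ednrb difference (0.98, adjusted p = 0.163) and the Ece1 rise in OIR (0.52, adjusted p = 0.0668) lost their calls, no other member's call changed, and genes with a higher effect at p17 fell from 389 to 255.

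With single mice left out, values ranged from -2.66 to -1.96 for Edn3 at p14, -0.25 to 0.036 for Edn1 at p14 and -0.052 to 0.13 for Ednrb at p14. The difference between the ages ranged from -0.35 to 0.54 for Edn2, 1.12 to 1.46 for Edn1 and 0.995 to 1.23 for Ednrb. From nOIR p14 to p17 the ranges were -0.50 to 0.23 for Edn3, -0.15 to 0.75 for Edn2, -0.22 to 0.014 for Ednrb and -0.045 to 0.10 for Ece2, and from OIR p14 to p17 0.37 to 0.64 for Ece1. At p14, Ece1 and Ece2, which were not called, ranged from 0.064 to 0.33 and from -0.35 to -0.12. Of the calls of the list genes named in the text, 75 values lost significance over all settings and 2644 did not change.

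Over all genes, the 43 higher and 43 lower calls between the control ages became 109 and 127 by DESeq2, 114 and 90 on the compared groups alone, 39 and 79 after rescaling, and 27 lower with the block. They were 22 and 12 without nOIR p14 S3 and 26 and 20 without nOIR p17 S4. The lower calls alone were 28 and 27 without nOIR p14 S1 or S5, 27 and 26 without nOIR p17 S1 or S6, and 67 without OIR p14 S1. The 491 lower calls from OIR p14 to p17 became 211 on the compared groups and 298 with the block, and the 389 higher and 40 lower differences became 597 and 93 by DESeq2, with 14 lower under the block and 24 lower without OIR p14 S6. Rescaling moved the share of higher calls from 52.2% to 62.6% at p14 and from 59.1% to 71.4% at p17. Reads were not freed of PCR copies, and depth limits Edn3 and the control levels of Edn2.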
